A study of Mus musculus with 22 samples.

Results

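Corticosteroid receptors and the genes around them were followed in the brain of mice with reduced circTulp4, a circular RNA made from the Tulp4 gene. The genes were chosen by name for their role in the stress response and not by a threshold on a measured value, and there were 8: the receptors Nr3c1 and Nr3c2, the hormone-induced genes Fkbp5, Sgk1 and Tsc22d3, and the peptide Crh with its receptor Crhr1 and its binding protein Crhbp. All 8 were found among the 23037 genes matched in the count table. Of these, 7 passed the low-count filter of the fit over all libraries (5 cpm or more in 2 or more libraries, cpm being counts scaled by the size of the library, here with no further normalization), and Crh did not.

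The 22 libraries came from the hippocampus (3 wild-type and 4 CD mice), the cortex (4 and 4) and the cerebellum (4 and 3) of 8 mice, so most mice gave RNA of all 3 regions. CD (circTulp4-deficient) mice carry a CRISPR change of the splice acceptor of the circle from AG to TC, and descend from 1 mosaic male founder, obtained from C57BL/6 zygotes and bred to C57BL/6 females. The circle is reduced in them and not absent, and a cryptic acceptor site gives a variant circle. The repair template for the CD allele also held 1 further mutation, meant to keep Cas9 from cutting the template. Wild-type mice carry the unchanged allele. The labels name no stressor, hormone or other treatment for either group, and do not state that none was given. The series' design text names fewer libraries per group than carry labels and does not say which, and all labelled libraries were used. The age and sex of the mice used for sequencing were not given in the sources used here.

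Corticosterone, the glucocorticoid of mice, enters cells and binds 2 receptors in the brain. The mineralocorticoid receptor (MR, Nr3c2) binds it with high affinity and the glucocorticoid receptor (GR, Nr3c1) with lower affinity, and both then act in the nucleus as transcription factors. The release of corticosterone is driven by corticotropin-releasing hormone (Crh), which also acts within the brain as a peptide transmitter through Crhr1. The study is concerned with sensitivity to aversive stimuli, and the comparison addresses whether transcripts of this system differed with genotype and between brain regions.

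Library totals, with 1 transcript counted per gene, were between 2760846 and 8858937. Markers placed the dissections: all 8 of 8 cerebellar markers were higher in the cerebellum than in the hippocampus and the cortex, 7 of 8 cortical markers were higher in the cortex than in the hippocampus, and 7 of 8 hippocampal markers were higher in the hippocampus than in the cortex. The marker sum of the choroid plexus varied from 129 to 8299 cpm between hippocampal libraries. Hypothalamic markers were near 0, with sums between 0.611 and 7.84 cpm in all libraries.

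The edited gene was read first as a check of the labels. Tulp4 had 7.92 to 16.3 cpm in wild-type and 4.88 to 7.30 cpm in CD cortex, with no overlap, whereas the genotypes overlapped in the hippocampus and the cerebellum. In the test between genotypes given below, 0 of 9927 genes passed in the cortex, so Tulp4 did not. The study reports that linear Tulp4 by RT-qPCR and Tulp4 protein did not differ between genotypes in the brain. The values are read here only as a check of labels. The excess of counts of 1 RefSeq transcript of Tulp4 (NM_054040) over another (NM_001103181) was 2.71 to 3.69 cpm in wild-type hippocampus, 1.45 to 6.02 cpm in wild-type cortex and 3.12 to 13.6 cpm in wild-type cerebellum. It was 0.141 to 1.29 cpm in CD cortex and 0.599 to 2.61 cpm in CD cerebellum, below every wild-type library of the same region. In CD hippocampus 3 libraries had 0.423 to 0.573 cpm, whereas the library labelled CD of mouse m118 had 3.97 cpm, above all 3 wild-type libraries. The cortex and cerebellum libraries of that mouse were in the CD range. By the sum of blood markers, the hippocampus, cortex and cerebellum libraries labelled m118 had 13055, 14037 and 12885 cpm. All libraries of other mice had 8682 cpm or less. Whether the label is right was not tested. Hippocampal log2 fold changes of the listed genes tested between genotypes are therefore given with and without the hippocampal library of this mouse. The receptor ratio, the overlap of genotypes and the counts over all genes include it. The excess rested on 1 to 72 counts per library, was chosen after the values had been seen, and does not measure the circle itself.

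Sgk1 (serum- and glucocorticoid-regulated kinase 1, gene ID 20393), a kinase that acts on ion channels and transporters, is a classical target of both receptors and gave the highest counts of the list, between 1744 and 8899 per library. It lies on chromosome 10 from 21882184 to 21999903 on the plus strand of GRCm38. A full palindromic response element of these receptors (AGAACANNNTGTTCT, which reads the same on both strands) was searched in 32851 promoter windows of 300 bases from RefSeq (GRCm38.p6, 250 bases before to 50 after each annotated start). It was present in 3 windows, or 0.00913%, and 1 of the 3 belonged to Sgk1. The 6 genes of the list with an entry had 13 windows among them, of which 6 belonged to Sgk1. The window with the match is printed because it is the only such match in the list, with the palindrome in capitals.

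Sgk1, chr10:21993640-21993939, plus strand: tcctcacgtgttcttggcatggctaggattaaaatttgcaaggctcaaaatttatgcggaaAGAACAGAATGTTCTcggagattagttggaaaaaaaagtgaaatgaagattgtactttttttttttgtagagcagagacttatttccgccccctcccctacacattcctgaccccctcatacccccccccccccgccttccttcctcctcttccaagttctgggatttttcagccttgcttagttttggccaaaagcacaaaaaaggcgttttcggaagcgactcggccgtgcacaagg

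The match spans bases 189 to 175 before that start, chr10:21993701-21993715. The half-site alone (AGAACA on either strand, the other strand being TGTTCT) was present in 19% of all windows and in 4 of the 13 windows of the list, 3 of Sgk1 and 1 of Tsc22d3. No half-site was present in these windows of Nr3c2, Fkbp5, Crhr1 and Crhbp. Such matches describe letters in a window and not binding. The Tsc22d3 window is shown with its half-site in capitals, which lies 185 to 180 bases before the start.

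Tsc22d3, chrX:140600473-140600772, minus strand: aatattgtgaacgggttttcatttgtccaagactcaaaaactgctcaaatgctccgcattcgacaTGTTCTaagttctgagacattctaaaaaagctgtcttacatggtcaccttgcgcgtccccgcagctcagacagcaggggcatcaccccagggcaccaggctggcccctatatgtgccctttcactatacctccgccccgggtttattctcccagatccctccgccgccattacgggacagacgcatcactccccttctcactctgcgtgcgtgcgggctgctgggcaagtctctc

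The counts are of 3′ ends and cannot tell which start was used. All 6 listed Sgk1 transcripts had nearly the same counts, with totals of 97710 to 97713 over the 22 libraries, and the 8 transcripts of Tsc22d3 had identical counts.

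The regional distribution was examined first, over all 22 libraries, with edgeR's quasi-likelihood test and a threshold of FDR (Benjamini-Hochberg) below 0.01 with a change above 2-fold. Of the 7 genes tested, 2 passed between cortex and hippocampus, 4 between cerebellum and hippocampus, and 3 between cerebellum and cortex. Over all 11137 genes tested, 4.38% were higher in the cortex and 4.03% higher in the hippocampus in the first comparison, 9.76% higher in the cerebellum and 13.0% higher in the hippocampus in the second, and 9.70% higher in the cerebellum and 12.9% higher in the cortex in the third. Nr3c2, Crhr1 and Crhbp entered the fit only or mainly through libraries of the regions where they were high, so the counts for the 7 genes describe them and nothing is read from their share. For these 3 genes the fit with no filter on low counts is given as well. In bulk tissue, more cells of a type and more RNA per cell cannot be told apart. Levels below are cpm scaled by TMM over the 22 libraries, and because 3′ counts were not set against length they are compared between libraries and not between genes.

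**Figure D1:**
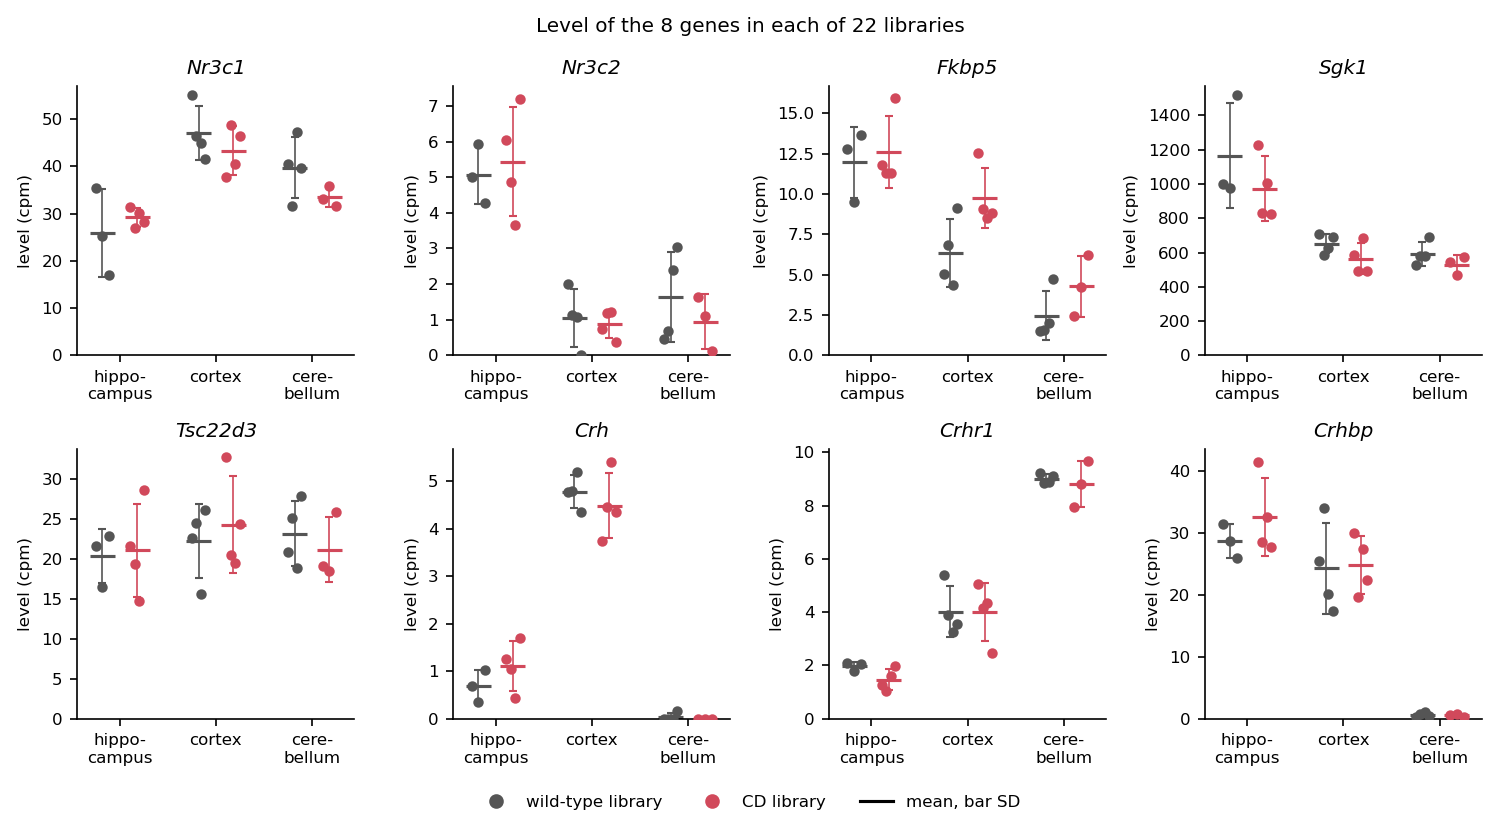
Level of each of the 8 genes (vertical axes, cpm from 0) in the 22 libraries, by region and genotype, with each point a library, the horizontal line the group mean and the bar its SD. Nr3c2 was highest in the hippocampus, Crhr1 in the cerebellum and Crh in the cortex, Crhbp was near 0 in the cerebellum, and the points of both genotypes overlapped in every region.

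The MR gene Nr3c2 (gene ID 110784, chromosome 8, 76898083 to 77245012, plus strand) was highest in the hippocampus, at low counts. In wild-type hippocampus it had 5.01, 5.94 and 4.27 cpm, and in CD hippocampus 6.03, 4.85, 3.67 and 7.20 cpm. In the cortex the lowest, median and highest of 8 libraries were 0, 1.11 and 2.00 cpm, and in the cerebellum those of 7 libraries were 0.124, 1.10 and 3.03 cpm. Every hippocampal library was above every library of the other regions. Nr3c2 was lower in the cortex than in the hippocampus by a log2 fold change of -2.33 (SE 0.39, adjusted p = 3.00e-05, edgeR) and lower in the cerebellum by -2.14 (SE 0.40, adjusted p = 5.38e-05). Cortex and cerebellum were not distinguishable (log2 fold change 0.20, SE 0.48, adjusted p = 0.744). It passed the filter only through 3 hippocampal libraries, at 5 cpm or more before TMM scaling, and so had entered through the region where it was high. Fitted with no filter on low counts, the first 2 differences were -2.32 (adjusted p = 1.36e-10, edgeR) and -2.12 (adjusted p = 4.97e-09). Its counts outside the hippocampus were 0 to 18 per library. With wild-type libraries alone it fell below the filter and was not tested.

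The GR gene Nr3c1 (gene ID 14815, chromosome 18, minus strand) was present in all libraries with 99 to 373 counts, and its order over the regions differed from that of Nr3c2. The lowest, median and highest levels were 16.9, 28.2 and 35.4 cpm in the hippocampus, 37.6, 45.6 and 55.1 cpm in the cortex, and 31.6, 35.7 and 47.3 cpm in the cerebellum. All 8 cortical libraries were above all 7 hippocampal ones, while the cerebellum overlapped with both. The log2 fold change between cortex and hippocampus was 0.72 (SE 0.12, adjusted p = 2.32e-05, edgeR), a 1.65-fold difference, and that between cerebellum and hippocampus was 0.41 (SE 0.12, adjusted p = 0.00544). Both were under the 2-fold limit, and cerebellum minus cortex was -0.31 (SE 0.12, adjusted p = 0.0223).

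The balance of both receptors was expressed as Nr3c2 counts divided by Nr3c1 counts within a library, which needs no scaling between libraries. The ratio was 0.197 ± 0.0532 in the hippocampus (SD, n = 7), 0.0210 ± 0.0117 in the cortex (n = 8) and 0.0349 ± 0.0255 in the cerebellum (n = 7). The lowest hippocampal library had 0.122 and the highest library outside the hippocampus had 0.0766. Between genotypes the ratio was 0.210 ± 0.0599 in wild-type (SD, n = 3) and 0.187 ± 0.0545 in CD hippocampus (n = 4), a difference smaller than either SD. The ratio compares regions and is not the ratio of receptor molecules, since each gene is counted at its own 3′ end.

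**Figure D2:**
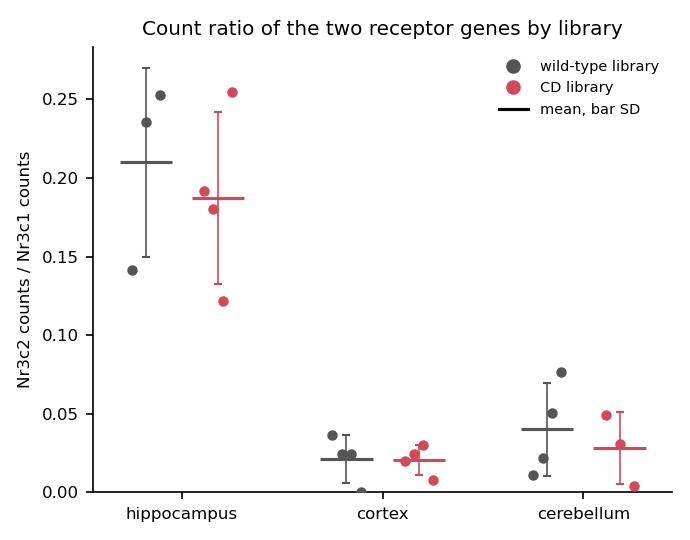
Nr3c2 counts divided by Nr3c1 counts (vertical axis, from 0) in each library, by region and genotype, with lines for group means and bars for SD. The hippocampal libraries lay between 0.122 and 0.255 and all others at or below 0.0766.

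Fkbp5 (gene ID 14229, chromosome 17, 28398753 to 28486149, minus strand) encodes a co-chaperone that binds HSP90 in the receptor complex, lowers the affinity of GR for hormone and is itself induced by GR. It decreased from hippocampus to cortex to cerebellum. Its lowest, median and highest levels were 9.50, 11.8 and 15.9 cpm in the hippocampus, 4.34, 8.68 and 12.5 cpm in the cortex, and 1.51, 2.44 and 6.20 cpm in the cerebellum. Hippocampus and cerebellum did not overlap, whereas the cortex overlapped with both. Cerebellum minus hippocampus was -1.89 on the log2 scale (SE 0.23, adjusted p = 8.90e-08, edgeR) and cerebellum minus cortex was -1.22 (SE 0.23, adjusted p = 7.40e-05). Cortex minus hippocampus was -0.67 (SE 0.20, adjusted p = 0.0111), outside the threshold.

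Sgk1 was highest in the hippocampus. Its lowest, median and highest levels were 824, 1002 and 1519 cpm in the hippocampus, 491, 605 and 708 cpm in the cortex, and 467, 576 and 693 cpm in the cerebellum. Every hippocampal library was above every library of the other regions, and cortex and cerebellum overlapped. The log2 fold change was -0.81 for cortex minus hippocampus (SE 0.11, adjusted p = 1.32e-06, edgeR) and -0.93 for cerebellum minus hippocampus (SE 0.11, adjusted p = 1.21e-07), both short of 2-fold, and -0.11 for cerebellum minus cortex (SE 0.11, adjusted p = 0.378).

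Sgk1 was also read beside markers of other cells. The highest Sgk1 level, 1519 cpm in the hippocampus of wild-type mouse m244, was in the library with the highest choroid plexus sum, 8299 cpm. The second highest, 1228 cpm in CD mouse m118, was in the library with the lowest sum, 129 cpm. Without the library of mouse m244, cortex minus hippocampus was -0.69 (SE 0.10, adjusted p = 6.27e-06, edgeR) and all other hippocampal libraries were still above the other regions. The sum of 8 oligodendrocyte markers was 3414 to 5421 cpm in the hippocampus, 1255 to 2705 cpm in the cortex and 1950 to 2815 cpm in the cerebellum, so that the hippocampus was highest for these markers as for Sgk1 while the other regions overlapped. The part of choroid plexus and oligodendrocytes in the level of Sgk1 was not tested. Across the 22 libraries the genes most like Sgk1 were Gfap (r = 0.916), Carhsp1 (r = 0.909) and Sostdc1 (r = 0.909), which describes libraries that share region, mouse and depth.

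Tsc22d3 (gene ID 14605, chromosome X, 140539528 to 140600522, minus strand) encodes GILZ, a leucine zipper protein induced by glucocorticoids. In contrast with Fkbp5 and Sgk1, its levels overlapped between all regions. The lowest, median and highest were 14.7, 21.6 and 28.7 cpm in the hippocampus, 15.6, 23.5 and 32.8 cpm in the cortex, and 18.5, 20.8 and 27.8 cpm in the cerebellum. The log2 fold changes were 0.16 (SE 0.15) for cortex minus hippocampus, 0.11 (SE 0.15) for cerebellum minus hippocampus and -0.05 (SE 0.15) for cerebellum minus cortex, with adjusted p between 0.444 and 0.772 (edgeR). The genes most like it over the 22 libraries reached only r = 0.688 (Bach2), the lowest such value among the 7 genes.

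Crh (gene ID 12918, chromosome 3, 19693401 to 19695396, minus strand) was a cortical transcript here, although at low counts. It had 203 counts in the 8 cortical libraries, 42 in the 7 hippocampal ones and 1 in the 7 cerebellar ones. The lowest, median and highest levels were 3.75, 4.62 and 5.40 cpm in the cortex and 0.356, 1.02 and 1.69 cpm in the hippocampus, with no overlap. Relative to the summed library totals of each region, the cortex had 4.94 times the Crh of the hippocampus (exact 95% interval 3.53 to 7.06). Against the cerebellum the ratio was 166 (29.4 to 6583) for the cortex and 33.6 (5.70 to 1357) for the hippocampus, intervals that cover counting error only. Fitted with no filter on low counts, cortex minus hippocampus was 2.43 on the log2 scale (adjusted p = 4.74e-10, edgeR). Neurons of the hypothalamus, the main source of Crh for the pituitary, were not sampled.

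Crhr1 (gene ID 12921, chromosome 11, 104130463 to 104175523, plus strand), the receptor through which Crh acts on most of its brain targets, was highest in the cerebellum, where Crh was nearly absent. Its lowest, median and highest levels were 1.04, 1.78 and 2.07 cpm in the hippocampus, 2.49, 4.03 and 5.38 cpm in the cortex, and 7.94, 8.86 and 9.68 cpm in the cerebellum. No region overlapped with another. Crhr1 was higher in the cortex than in the hippocampus by a log2 fold change of 1.24 (SE 0.20, adjusted p = 1.75e-05, edgeR), in the cerebellum than in the hippocampus by 2.38 (SE 0.19, adjusted p = 5.45e-11) and in the cerebellum than in the cortex by 1.14 (SE 0.17, adjusted p = 1.83e-06). It entered the fit through 7 cerebellar libraries and 1 cortical library. With no filter on low counts the 3 values were 1.25 (adjusted p = 1.65e-05, edgeR), 2.39 (adjusted p = 2.28e-18) and 1.15 (adjusted p = 8.92e-07). With wild-type libraries alone, the cortex minus hippocampus value fell outside the threshold, at 1.06 (adjusted p = 0.0125, edgeR).

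Crhbp (gene ID 12919, chromosome 13, 95431376 to 95444831, minus strand), a secreted protein that binds Crh and limits its action, was nearly limited to the forebrain regions. The lowest, median and highest levels were 26.0, 28.7 and 41.5 cpm in the hippocampus and 17.4, 24.0 and 34.1 cpm in the cortex. In the cerebellum the 7 libraries had 2 to 6 counts each, or 0.248 to 1.11 cpm. The log2 fold change was -5.72 for cerebellum minus hippocampus (SE 0.23, adjusted p = 9.08e-17, edgeR) and -5.41 for cerebellum minus cortex (SE 0.23, adjusted p = 2.95e-16), the largest differences of the list in these fits. It entered the fit through hippocampal and cortical libraries alone, and with no filter the values were -5.70 (adjusted p = 1.14e-66, edgeR) and -5.41 (adjusted p = 9.00e-63). Hippocampus and cortex overlapped, with -0.31 for cortex minus hippocampus (SE 0.14, adjusted p = 0.0862). The cerebellum, with the highest Crhr1, thus had the lowest Crh and Crhbp. Crh and Crhbp are both known from interneurons. The sum of 8 interneuron markers was 6891 to 9289 cpm in the hippocampus, 8567 to 11279 cpm in the cortex and 3439 to 4085 cpm in the cerebellum. The markers did not move together: 4 passed as lower and 2 as higher in the cerebellum, against the hippocampus and again against the cortex. The part of interneurons in the difference of Crh and Crhbp was not tested.

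**Figure D3:**
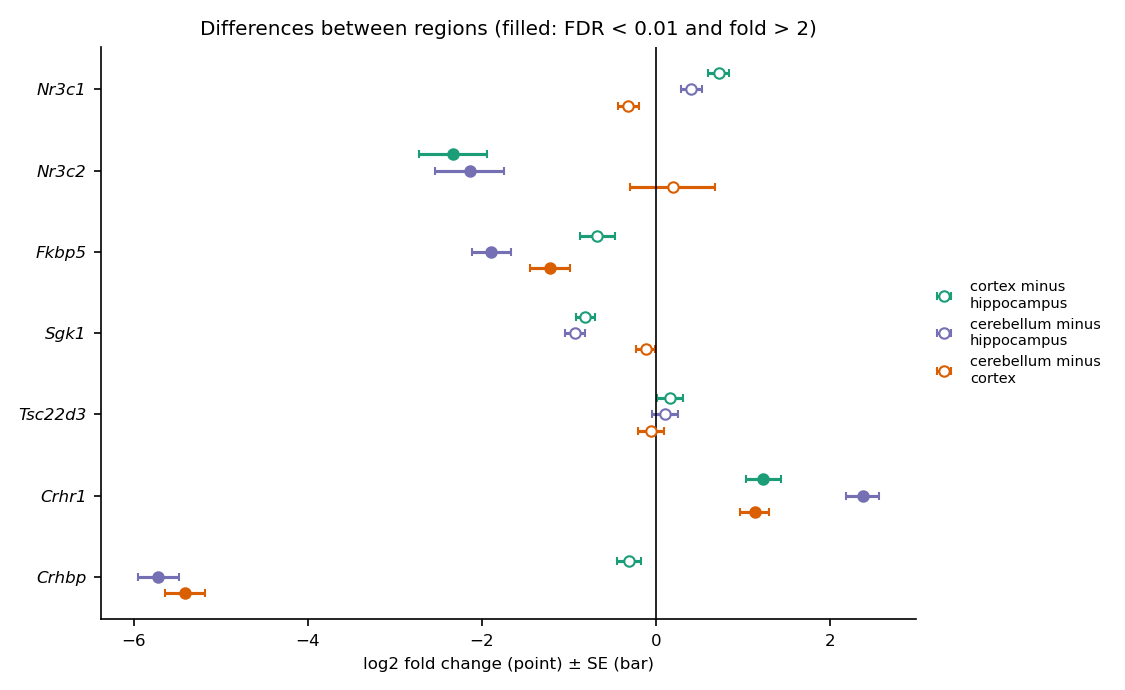
Log2 fold change between regions (horizontal axis, point) with its SE (bar) for the 7 genes tested over 22 libraries with edgeR, with filled points where the FDR was below 0.01 and the change above 2-fold. Crhbp lay at -5.72 and -5.41 in the cerebellum, Nr3c2 was lower in both regions than in the hippocampus, and all 3 points of Tsc22d3 lay near 0.

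Genes of the wider pathway were read from 4 lists. Of 16 chaperones and co-regulators of the receptors, 1 passed in both comparisons with the cerebellum, Fkbp4, a co-chaperone that competes with Fkbp5 in the receptor complex. It was higher in the cerebellum (738 ± 42.3 cpm, SD, n = 7) than in the hippocampus (317 ± 26.7 cpm, n = 7), with a log2 fold change of 1.23 (SE 0.07, adjusted p = 5.67e-14, edgeR). The order of its region means was the reverse of that of Fkbp5. Of 19 other glucocorticoid-induced genes tested, 2 were higher and 2 lower in the cortex than in the hippocampus, 2 higher and 3 lower in the cerebellum than in the hippocampus, and 4 higher and 1 lower in the cerebellum than in the cortex. Among the genes with the largest changes per comparison were Zbtb16, a transcriptional repressor, with -2.52 for cerebellum minus cortex (SE 0.26), and Cebpd, a transcription factor, with -2.09 for cortex minus hippocampus (SE 0.24). Both are given as descriptions, since no cerebellar library of Zbtb16 and no library of Cebpd outside the hippocampus reached 5 cpm before TMM scaling, so that each entered the fit through the regions where it was high. Nothing is read from the counts of these lists between regions.

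Of 4 genes of steroid metabolism tested, 2 passed in at least 1 comparison of regions. Hsd11b1, the enzyme that regenerates corticosterone within cells, had 12.6 ± 1.04 cpm in the hippocampus (SD, n = 7), 5.44 ± 1.62 cpm in the cortex (n = 8) and 21.8 ± 1.27 cpm in the cerebellum (n = 7). It was lower in the cortex than in the hippocampus by -1.19 on the log2 scale (SE 0.13, adjusted p = 8.31e-08, edgeR) and higher in the cerebellum than in the cortex by 1.97 (SE 0.13, adjusted p = 1.16e-12). H6pd, which supplies the cofactor of that enzyme, was higher in the cerebellum than in the hippocampus by 1.16 (SE 0.24), but entered the fit only through 3 cerebellar libraries, so that this is a description. Of the peptide systems near Crh, 4 of 12 genes in the table were tested. Adcyap1, which encodes the stress-related peptide PACAP, was higher in the cortex than in the hippocampus by 2.07 (SE 0.22), and Oxtr, the oxytocin receptor, was lower in the cerebellum than in the hippocampus by -3.21 (SE 0.28). These are descriptions too, since no hippocampal library of Adcyap1 and no cerebellar library of Oxtr reached 5 cpm before TMM scaling.

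CD and wild-type mice were then compared within each region. No gene of the list passed the threshold (FDR below 0.01 with a change above 2-fold): 0 of 6 tested in the hippocampus, 0 of 5 in the cortex and 0 of 5 in the cerebellum. Over all genes tested, 0% passed in the hippocampus (0 of 9964), the cortex (0 of 9927) and the cerebellum (0 of 10141), while 420, 328 and 461 genes had an unadjusted p below 0.05 (edgeR). DESeq2 called 0 genes of the list in each region, and 2, 1 and 0 of all genes. The median absolute log2 fold change of the list was 0.13, 0.13 and 0.16, against 0.11, 0.11 and 0.12 over all genes. The values of both genotypes overlapped for all 8 genes in all 3 regions, where 5.43%, 2.53% and 5.33% of the genes tested did not overlap.

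Among the tested genes of the list, Fkbp5 had the largest differences between genotypes in the cortex, in the cerebellum and over the 3 regions. In the cortex it had 5.08, 6.86, 4.34 and 9.11 cpm in wild-type mice and 12.5, 9.09, 8.54 and 8.83 cpm in CD mice. In the cerebellum the values were 1.51, 1.56, 2.03 and 4.72 cpm in wild-type and 2.44, 4.21 and 6.20 cpm in CD mice. In the hippocampus they were 12.8, 9.50 and 13.7 cpm in wild-type and 11.8, 11.3, 11.3 and 15.9 cpm in CD mice. In the cortex 1 wild-type library, of mouse m244, reached the CD range, in the cerebellum the same mouse did, and in the hippocampus the genotypes were mixed.

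The log2 fold change of Fkbp5 (CD minus wild type) was 0.66 in the cortex (SE 0.25, adjusted p = 0.9998, edgeR), 0.85 in the cerebellum (SE 0.44, adjusted p = 0.981) and 0.09 in the hippocampus (SE 0.20, adjusted p = 0.997). Only the cortex value had an unadjusted p below 0.05, at rank 108 of 9927 genes. Over the 3 regions together it was 0.60 (SE 0.18, adjusted p = 0.9997, limma with mouse as a random block). This value had rank 15 of 11137 genes by p and failed the correction. Leaving out each library in turn gave 0.47 to 0.72. Means were higher in CD mice in all 3 regions, which came from mostly the same mice. The share of all genes with 1 direction in all 3 regions was not determined. In the cerebellum only 2 libraries, 1 of each genotype, reached 5 cpm before TMM scaling, so the gene left the test when either was left out.

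Sgk1 had lower means in CD mice in all 3 regions, and here too the share of all genes with 1 direction was not determined. Its levels in the hippocampus were 1002, 974 and 1519 cpm in wild-type and 1228, 832, 1004 and 824 cpm in CD mice. In the cortex they were 708, 584, 626 and 691 cpm against 585, 491, 685 and 495 cpm, and in the cerebellum 525, 578, 578 and 693 cpm against 544, 467 and 576 cpm. The 2 groups overlapped each time. The log2 fold change was -0.26 in the hippocampus (SE 0.18, adjusted p = 0.997, edgeR), -0.22 in the cortex (SE 0.12, adjusted p = 0.9998) and -0.16 in the cerebellum (SE 0.11, adjusted p = 0.981). Over the 3 regions it was -0.21 (SE 0.09, adjusted p = 0.9997, limma), at rank 191 of 11137 genes by p. In the hippocampus the value depended on single libraries: it was -0.39 (adjusted p = 0.998) without the library labelled CD of mouse m118, and -0.02 (adjusted p = 0.997) without wild-type mouse m244, the one rich in choroid plexus markers.

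No difference in the receptors passed the test. Nr3c1 had 35.4, 25.2 and 16.9 cpm in wild-type and 31.4, 26.9, 30.1 and 28.2 cpm in CD hippocampus, so that wild-type libraries were both the highest and the lowest. Its log2 fold change was 0.17 in the hippocampus (SE 0.20), -0.13 in the cortex (SE 0.13) and -0.25 in the cerebellum (SE 0.14), with adjusted p between 0.981 and 0.9998 (edgeR). Nr3c2 was tested within 1 region, the hippocampus, with 0.08 (SE 0.28, adjusted p = 0.997). Over the 3 regions together Nr3c2 gave -0.48 (SE 0.41) and Nr3c1 gave -0.05 (SE 0.10), both with an adjusted p of 0.9997 (limma). Tsc22d3 gave 0.06 (SE 0.21), 0.13 (SE 0.20) and -0.12 (SE 0.17) in the hippocampus, cortex and cerebellum, with adjusted p between 0.981 and 0.9998.

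Without the hippocampal library of mouse m118, the hippocampal log2 fold changes were 0.14 for Nr3c1, 0.04 for Nr3c2, 0.12 for Fkbp5, 0.05 for Tsc22d3 and 0.05 for Crhbp, against 0.17, 0.08, 0.09, 0.06 and 0.17 with it, and every adjusted p was 0.998 (edgeR). Over the 3 regions without this library Fkbp5 gave 0.61 (SE 0.19) and Sgk1 gave -0.25 (SE 0.08), both with an adjusted p of 0.999 (limma).

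Of the Crh system, Crhbp gave 0.17 in the hippocampus (SE 0.16, adjusted p = 0.997, edgeR) and 0.00 in the cortex (SE 0.20, adjusted p = 0.9998), and Crhr1 gave -0.02 in the cerebellum (SE 0.18, adjusted p = 0.9995). Over the 3 regions Crhr1 gave -0.20 (SE 0.17) and Crhbp gave -0.07 (SE 0.31), both with an adjusted p of 0.9997 (limma). Crhr1 in wild-type cerebellum had 9.21, 8.85, 8.87 and 9.10 cpm, and in CD cerebellum 7.94, 8.79 and 9.68 cpm. The CD values thus lay on both sides of the wild-type ones. Crh in the cortex was 4.78 ± 0.346 cpm in wild-type (SD, n = 4) and 4.49 ± 0.685 cpm in CD mice (n = 4), and its log2 fold change, fitted with no filter, was -0.09 (adjusted p = 0.988). Markers of the pituitary, which expresses Crhr1 and Pomc, were higher in some CD libraries, with sums of 2.23 to 96.3 cpm in CD and 3.02 to 14.0 cpm in wild-type cerebellum. The CD cerebellum with the highest sum, of mouse m118, had the lowest Crhr1 of the 3, and the part of these markers was not tested.

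**Figure D4:**
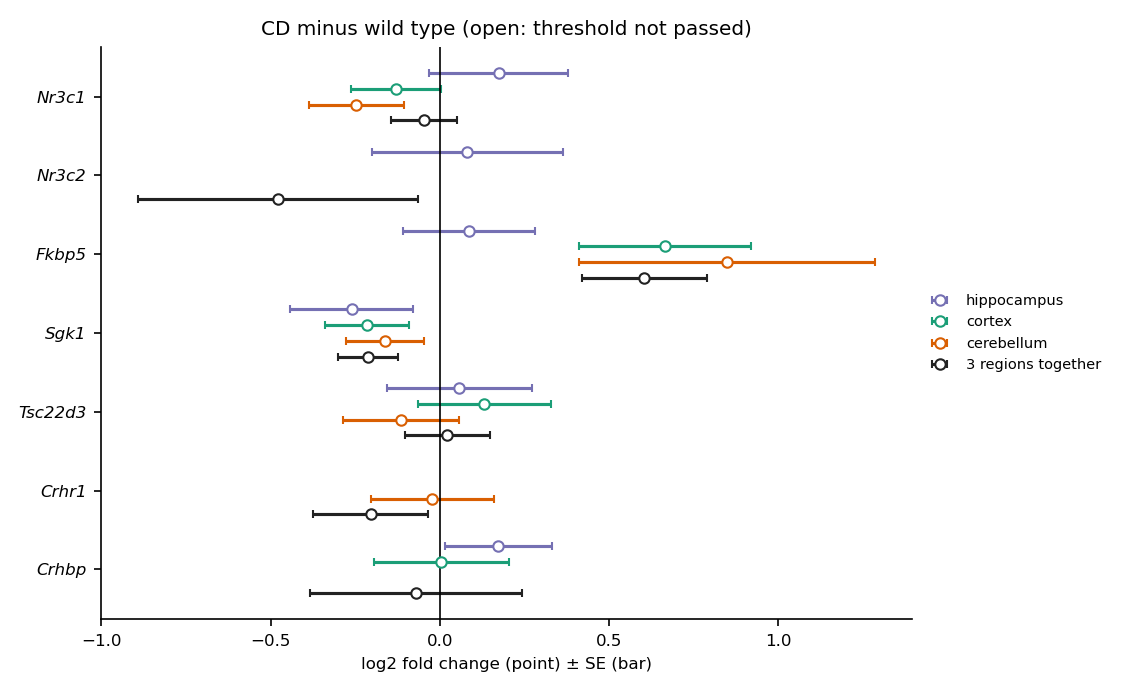
Log2 fold change of CD minus wild type (horizontal axis, point) with its SE (bar) for each gene tested, by region (edgeR) and over the 3 regions together (limma). All points are open because none passed the threshold, Fkbp5 lay at 0.66 in the cortex and 0.85 in the cerebellum, and Sgk1 lay between -0.26 and -0.16 in the 3 regions.

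Over the 3 regions together, 0 of 7 genes passed an FDR below 0.05, against 0% of 11137 genes (399 with an unadjusted p below 0.05, limma). The interaction of genotype with region also gave 0 of 7, against 0% of all genes (435 with an unadjusted p below 0.05, edgeR). For Fkbp5 the interaction had an adjusted p of 0.999, at rank 1949 of 11137, so its differences in the cortex and cerebellum were not shown to differ from that in the hippocampus. In the 4 pathway lists no gene passed between genotypes in any of these tests. Among the 19 glucocorticoid-induced genes the median log2 fold change over the regions was 0.07, against 0.00 over all genes, and 3 had an unadjusted p below 0.05: Cdkn1a (0.38), Klf15 (-0.25) and Nfkbia (-0.15), picked here for their values.

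Differences between mice of the same genotype were tested because transcripts induced by glucocorticoids can vary with the state of an animal, and the same mouse gave up to 3 regions. Of all genes, 0.0988% passed an FDR below 0.05 (11 of 11137), and 0 of the 7 genes did. Tsc22d3 had the lowest p of the list at rank 104 of 11137 (adjusted p = 0.5264, edgeR), followed by Crhbp at rank 237 (adjusted p = 0.656), Sgk1 at rank 904 (adjusted p = 0.836) and Fkbp5 at rank 1735 (adjusted p = 0.879). An unadjusted p below 0.05 was reached by 6.07% of all genes.

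Tsc22d3 was above the mean of its genotype and region in all 3 libraries of CD mouse m242 and of wild-type mouse m244, by 0.27 and 0.24 on average on the log2 scale. It was below that mean in all 3 libraries of wild-type mouse m240 (mean deviation -0.34) and of CD mouse m190 (-0.31). Of the mice with 2 libraries, m164 had both above the mean (0.15) and m138 both below it (-0.15). Fkbp5 was above its mean in 3 of 3 libraries of mouse m244 (0.58 on average) and in 2 of 3 of mouse m242 (0.27), and below it in 3 of 3 of mouse m240 (-0.29). Sgk1 was above its mean in 3 of 3 libraries of mice m244 (0.24) and m118 (0.16) and below it in 3 of 3 of mouse m240 (-0.11). Crhbp was above its mean in 3 of 3 libraries of CD mice m118 (0.27) and m190 (0.17) and below it in 3 of 3 of mice m242 (-0.29) and m244 (-0.24). Both libraries of mouse m164 were above the mean of Crhbp (0.33) and both of mouse m138 below it (-0.24). The cerebellar libraries had only 2 to 6 counts of Crhbp, so their side of the mean rests on few reads. For Fkbp5, Tsc22d3 and Sgk1, mouse m244 was thus high and mouse m240 low in all libraries, both of them wild-type. These 2 mice were singled out after the values were seen. The share of all genes on 1 side of the mean in every library of a mouse was not determined. Deviations from a shared group mean also depend on each other, since a high library puts others of its group below the mean.

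After the group means were subtracted, Fkbp5 and Tsc22d3 had r = 0.677 over the 22 libraries, the highest among the 21 pairs of the list, and Nr3c2 and Crhbp had r = 0.557. These are descriptions: libraries share mice, RNA and depth. The blood marker sum also differed between mice, with 12885 to 14037 cpm in the 3 libraries of mouse m118 and 3754 to 8682 cpm in the others, and 5 of its 5 genes were among the 11 that passed. It was 6133 to 7947 cpm in mouse m244 and 6317 to 8682 cpm in mouse m240. The hippocampal library of mouse m244 had a choroid plexus sum of 8299 cpm, against 152 and 294 cpm in the other wild-type hippocampal libraries. Its cortical library had the lowest total of all libraries, 2760846. The parts of blood, choroid plexus and depth in the differences between mice were not tested.

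**Figure D5:**
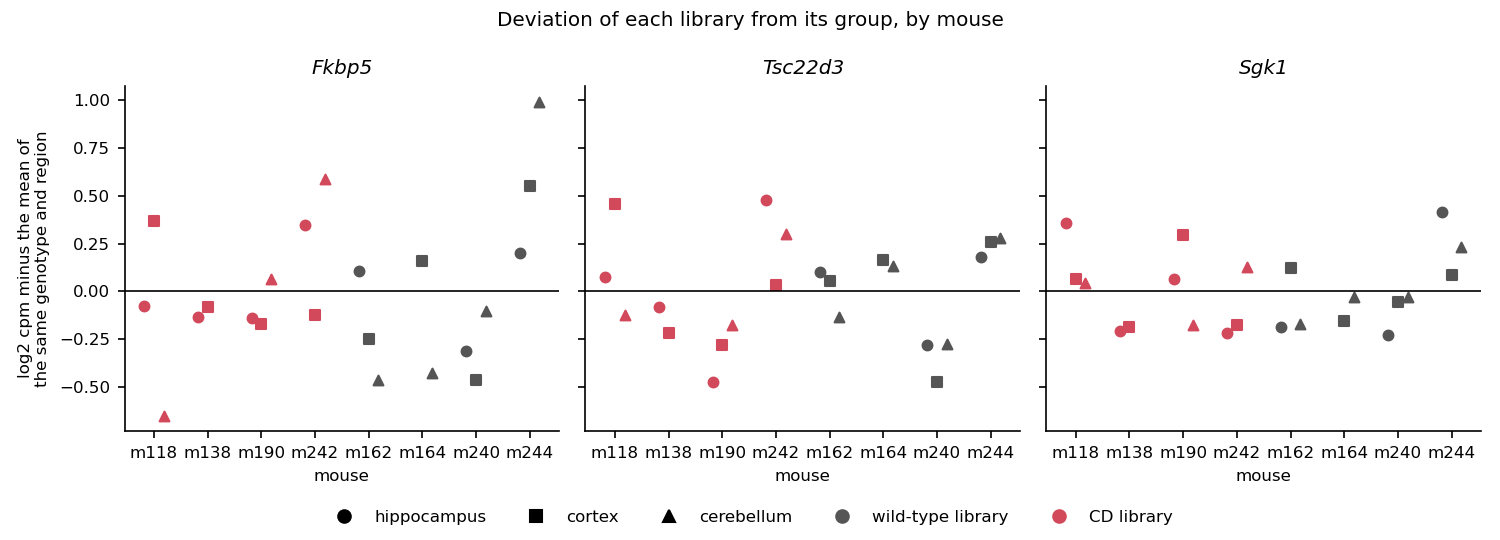
Deviation of each library from the mean of its genotype and region (vertical axis, log2) for Fkbp5, Tsc22d3 and Sgk1, by mouse, with symbols for regions and colours for genotypes. All 3 libraries of mouse m244 lay above 0 and all 3 of mouse m240 below 0 in each panel.

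The other glucocorticoid-induced genes were read in the same way. In mouse m244, 15 of 19 had a mean deviation above 0, with a median of 0.17, and in mouse m240, 8 of 19 did, with a median of -0.13. The other mice had 6 to 12 of 19 above 0, while the share over all genes was 48.8% to 52.6% in each mouse. Mice m244 and m240 had been picked from the same libraries, and genes of this list may vary together. The spread of such counts over other sets of 19 genes was not determined, so these counts are descriptions. None of the 19 passed the threshold between mice, and 5, picked here for their values, had an unadjusted p below 0.05: Plin4, Mt2, Klf9, Zbtb16 and Hif3a. Plin4, a lipid droplet protein, was above its mean in all libraries of mice m118, m164, m242 and m244 and below it in all of mice m138, m162 and m240 (adjusted p = 0.388, edgeR). Plin4 passed the low-count filter within the hippocampus but not within the cortex or the cerebellum, where its levels were low. Because each mouse was sampled once, mouse and dissection cannot be told apart.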

How the data were processed

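RNA of hippocampus, cortex and cerebellum was profiled by CelSeq2, a 3′ end method. The deposited values were raw read counts per RefSeq transcript, which the authors obtained by alignment to mm10 with STAR and counting with ESAT. Tool versions and the treatment of molecular identifiers were not given in the sources used here. Symbols were found for 80.6% of the 85964 transcripts, which held 81.44% of the counts, and unmatched transcripts were left out of library sizes and tests. Transcripts of 1 gene shared reads, so the transcript with the highest total stood for each gene (23037 genes).

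Counts were analysed with edgeR 4.0.16 (TMM, quasi-likelihood tests), limma 3.58.1 and, as an alternative, DESeq2 1.42.0 in R 4.3.3, with Benjamini-Hochberg adjustment over all genes tested and two-sided tests. A gene entered a fit where 2 or more of its libraries reached 5 cpm, taken from counts and library totals before TMM scaling, whereas the levels printed are TMM-scaled. Calls required an FDR below 0.01 and a change above 2-fold, as in the study's plots, or an FDR below 0.05 for the interaction, for the 3 regions together and for mice. Log2 values for single libraries used a prior count of 2. Scripts were tested on simulated data. Libraries of a group came from different mice. Libraries of different regions were paired by the mouse numbers in the labels; the mean correlation of deviations from group means was 0.0828 between hippocampus and cortex (7 mice), 0.0469 between hippocampus and cerebellum (6 mice) and -0.00365 between cortex and cerebellum (7 mice).

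All 8 genes were described whatever their values. Of the pathway lists, genes called between genotypes or mice and the 2 called genes with the largest change per pair of regions were eligible to be named, as were the 3 genes with the highest r with each of the 8. Outside this rule, glucocorticoid-induced genes with a low unadjusted p over the regions or between mice were named after their values were seen. The genes, lists and tests were chosen with earlier results of these data known. Coordinates are of GRCm38, and promoter sequences are of RefSeq on GRCm38.p6, with 13 windows for 6 of the 8 genes. Alternatives were another normalization, no filter, a filter over all libraries, summed transcripts, DESeq2, another threshold, 1 genotype only, a replicate block and leaving out each library.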

Additional observations from a re-analysis of the deposited data

Results flagged for a closer look

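In groups of 4 libraries, a value was set apart where its gap to the nearest other exceeded Dixon's 95% critical value, which chance does for about 1 in 20 groups. Of 36 groups tested, of the 8 genes and of the ratio of Nr3c2 to Nr3c1 counts, 4 had such a value, against 1.8 expected by chance. Fkbp5 accounted for 3 of them. In CD cortex, mouse m118 had 12.55 cpm of Fkbp5 and the others 8.541 to 9.088 cpm. In CD hippocampus, mouse m242 had 15.95 cpm and the others 11.3 to 11.82 cpm. In wild-type cerebellum, mouse m244 had 4.719 cpm and the others 1.509 to 2.031 cpm. Each of the 3 was the highest of its group, and they came from 3 different mice. The remaining value was Crh in the cerebellum of wild-type mouse m244, where 1 count gave 0.1685 cpm and the other libraries of the group had 0 counts.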

How the results depend on the processing

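Among the 8 genes, every regional call held in each of the 22 fits that left out 1 library, and no gene was called between genotypes, in the interaction or between mice under any alternative. With an FDR below 0.05 and no fold limit, 5 of the genes passed between cortex and hippocampus (2 in the main analysis), and with wild-type libraries alone 0 passed, where Nr3c2 fell below the filter and Crhr1 had a log2 fold change of 1.06. With mouse as a replicate block, the regional counts were again 2, 4 and 3, and 926, 2548 and 2519 over all genes (937, 2539 and 2515 without it). The block changed no other call.

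Counts over all genes moved more. With no filter on low counts, 6, 3 (Gh, Gm40250 and Pms2) and 10 genes were called between genotypes in hippocampus, cortex and cerebellum, 1471 between cortex and hippocampus, 24 in the interaction and 543 between mice (11 in the main analysis). DESeq2 called 2 genes in the hippocampus (Frrs1 and Gm34045) and 1 in the cortex (Gm40250). With an FDR below 0.05 and no fold limit, 1 gene (Gm40250) was called between genotypes in the cortex, and 3953, 6840 and 6895 genes between regions. Leaving out 1 library gave 0 to 1 genes between genotypes in the cortex (Gm40250, without CD mouse m190) and in the cerebellum (Prl, without CD mouse m242), and 7 to 15 between mice (7 without the hippocampus or the cerebellum of CD mouse m242 or the cortex of CD mouse m190, and 15 without the cortex of wild-type mouse m164). These genes were named after their values were seen, and the causes were not tested.

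The direction of 15 values that passed no test reversed. In the hippocampus, leaving out 1 library gave genotype differences of -0.0488 to 0.46 for Nr3c1, -0.10 to 0.24 for Nr3c2, -0.0644 to 0.19 for Fkbp5 and -0.13 to 0.20 for Tsc22d3. In the cortex it gave -0.0388 to 0.22 for Tsc22d3 and -0.10 to 0.21 for Crhbp, and in the cerebellum -0.10 to 0.0403 for Crhr1, which was 0.00242 with summed transcripts. Over the 3 regions it gave -0.13 to 0.0283 for Nr3c1, -0.0362 to 0.0750 for Tsc22d3 and -0.17 to 0.10 for Crhbp. For cerebellum minus cortex it gave -0.13 to 0.52 for Nr3c2 (-0.0153 with CD libraries only) and -0.14 to 0.0304 for Tsc22d3 (0.0685 with wild-type libraries only). The low counts of Crh, Crhr1 outside the cerebellum and Nr3c2 outside the hippocampus limit what could be detected between genotypes.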
